A study of Mus musculus with 6 samples.

Results

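The RGS genes, which encode regulators of G-protein signalling, were followed in mouse bone marrow-derived monocytes (BMDM) and brainstem microglia (BSM). The 9 genes described are Rgs1, Rgs2, Rgs3, Rgs10, Rgs12, Rgs14, Rgs16, Rgs18 and Rgs19, chosen by symbol from the 35237 genes of the Cufflinks table. The same 9 symbols were read from the 36536 genes of the ALEXA-Seq table. The study sequenced RNA from 3 BMDM and 3 BSM libraries. All came from C57BL/6 mice at 6 weeks of age, with replicate 1 of each cell type from male mice and replicates 2 and 3 from female mice, and no genetic change or drug is listed for either group. BMDM were sorted for CD11b and CD115 with high CD45, BSM for CD11b with low CD45 and low CD115, and both lacked Ly6G. Each library pooled the sorted cells of a set of mice, and the labels call the 3 libraries of a cell type biological replicates. Expression is given as FPKM (fragments scaled to the length of a gene's exons and to the mapped fragments of the library) and, from the same reads, as an ALEXA-Seq signal on a linear scale whose unit is not named in the sources used here. Both tables rest on the same 6 libraries, so the ALEXA-Seq values are a second reading and not independent samples.

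Heterotrimeric G proteins carry signals from chemokine, purine, lipid and other receptors into the cell while their alpha subunit holds GTP. RGS proteins bind the active alpha subunit through a shared RGS domain and speed up the hydrolysis of GTP, which ends the signal. In monocytes and microglia, receptors coupled to the Gi class guide migration, and several RGS proteins are known to restrain them.

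BSM had more Rgs2, Rgs10 and Rgs1 transcript than BMDM, and BMDM had more Rgs18 and, with the deposited values, more Rgs19. The Rgs19 difference did not pass the test below once the libraries were rescaled, as given further on. Rgs2 was the most abundant RGS gene in both cell types, with 108 ± 16.8 FPKM in BMDM and 219 ± 47.4 FPKM in BSM (mean ± SD, n = 3 each). Rgs10 came next, with 42.7 ± 7.51 FPKM in BMDM and 133 ± 33.8 FPKM in BSM (SD, n = 3 each). Rgs3, Rgs12, Rgs14 and Rgs16 stayed under 3 FPKM in every library, the minimum set for the test, so 5 of the 9 genes were tested. In limma on log2(FPKM + 1), adjusted by the Benjamini-Hochberg method over the 6364 genes with 3 FPKM or more in at least 1 library, 3 of the 5 were higher in BSM and 2 were higher in BMDM at an adjusted p-value under 0.05. Across the genome-wide test, 54.5% of genes passed this threshold, with 45.3% on the BMDM side and 9.22% on the BSM side. Rgs1 and Rgs18 passed the minimum in 1 cell type alone, and Rgs19 passed it in BSM only through replicate 2, so the count of 5 of 5 follows in part from the minimum and is given as a description. The 2 groups of libraries did not overlap in FPKM for any of the 5 tested genes, and 66.8% of all genes tested did not overlap either. Rgs12 and Rgs14, which were under the minimum, also did not overlap, and no share was computed for genes under it. The same 5 genes passed in the same direction in the ALEXA-Seq table, where 47.9% of 6364 genes tested passed, with 37.1% for BMDM and 10.9% for BSM. In these pooled populations, fewer cells with a transcript and less of it in each cell cannot be told apart.

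**Figure D1:**
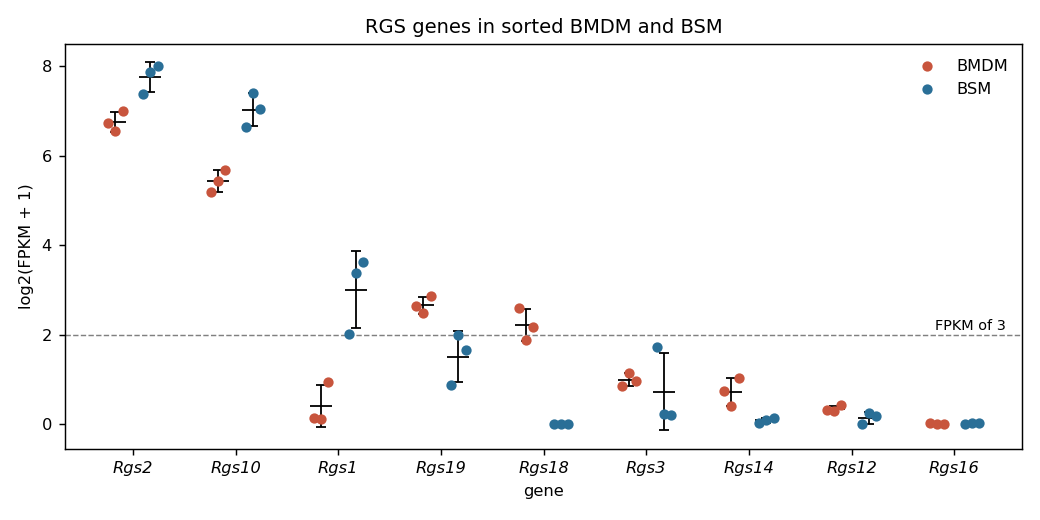
Expression of the 9 RGS genes as log2(FPKM + 1) on the vertical axis, 1 point per library, with BMDM on the left and BSM on the right of each gene, lines for the mean and bars for the SD (n = 3). Rgs2, Rgs10 and Rgs1 lie higher in BSM, Rgs19 and Rgs18 lie higher in BMDM with Rgs18 at 0 in all 3 BSM libraries, and the other 4 genes stay under the dashed line at an FPKM of 3.

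The libraries held the monocyte and microglial markers of the cell types they are labelled as. The 4 monocyte markers (Ccr2, Ly6c2, Ms4a3 and Vcan) summed to 174 to 195 FPKM in BMDM and to at most 0.484 FPKM in BSM, while the 4 microglial markers (P2ry12, Tmem119, Sall1 and Olfml3) summed to 0.331 to 0.560 FPKM in BMDM and 231 to 300.1 FPKM in BSM. Itgam, which encodes the sort antigen CD11b, is listed at 0 FPKM in BSM replicate 2, so a listed 0 in this table can be a failed estimate. Ptprc, which encodes CD45, had 83.2 to 115 FPKM in BMDM and 21.4 to 46.1 FPKM in BSM, the direction of the sort. Csf1r, which encodes CD115, went against it, with 19.1 to 21.3 FPKM in BMDM and 102 to 158 FPKM in BSM. These are transcripts, whereas the sort was on surface protein. FPKM summed over all genes came to 163199 to 194184 in BMDM and 68288 to 75021 in BSM, and log2 fold changes, positive where BMDM was higher, had a median of 0.81 over all genes tested. In the study's quality assessment, the RNA of BSM replicate 1 was rated far lower in integrity and in concentration than that of the other libraries, and it had the fewest genes at 1 FPKM or more, 5155 against 6335 to 7898. Without this library the 5 tested members passed in the same direction in both tables, with FPKM log2 fold changes in limma of -3.09 for Rgs1 (adjusted p = 0.000293), -1.19 for Rgs2 (0.00215), -1.79 for Rgs10 (0.000591), 2.22 for Rgs18 (0.000754) and 0.83 for Rgs19 (0.0129). The RGS values are given as deposited and, further on, after other scalings of the libraries.

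Rgs2 belongs to the R4 group, small proteins with little beyond the RGS domain, and is known for acting on Gq. The locus is at chr1:145846468-145851291 (mm9). Its promoter is shown because it is the most abundant of the genes and because Rgs2 and Rgs10, both higher in BSM, can be read side by side. The sequence runs from 250 bases before to 50 bases after the annotated start on the minus strand, at chr1:144004100-144004399 of GRCm38.p6 (RefSeq), a build later than that of the expression files. Capitals mark the GC box, searched as GGGCGG on either strand.
Rgs2 promoter: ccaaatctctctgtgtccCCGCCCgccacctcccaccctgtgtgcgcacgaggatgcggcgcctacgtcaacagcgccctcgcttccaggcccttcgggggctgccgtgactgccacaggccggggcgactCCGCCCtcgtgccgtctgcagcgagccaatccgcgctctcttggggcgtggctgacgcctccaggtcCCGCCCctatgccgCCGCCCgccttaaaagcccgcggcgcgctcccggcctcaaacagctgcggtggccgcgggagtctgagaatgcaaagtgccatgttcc
The 4 GC boxes stood in a window of 70.0% G and C with 33 CpG. Across the 32851 RefSeq promoters of this length the medians were 52.7% and 7 CpG, and 35.7% held at least 1 GC box.

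Rgs2 had 105, 92.9 and 126 FPKM in BMDM replicates 1 to 3 and 166, 234 and 257 FPKM in BSM replicates 1 to 3. All 3 BSM libraries lay above all 3 BMDM libraries, with BSM replicate 1 the lowest of its group. The ratio of the means was 2.03 in favour of BSM, and limma gave a log2 fold change of -1.00 (standard error, SE, 0.25, adjusted p = 0.0109). ALEXA-Seq listed 866, 732 and 1039 in BMDM and 1525, 2024 and 2298 in BSM, again without overlap, for a log2 fold change of -1.14 (SE 0.23, limma adjusted p = 0.00718). Among the genes above 0, Rgs2 ranked 23 of 18740 by mean FPKM in BSM and 123 of 18846 in BMDM.

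Rgs1, also of the R4 group, is known from lymphocytes as a brake on chemokine receptor signalling. It lies at chr1:146091807-146096189 (mm9). The BMDM libraries had 0.107, 0.0910 and 0.939 FPKM and the BSM libraries 3.09, 9.38 and 11.4 FPKM. Both groups were spread, with BMDM replicate 3 far above the other BMDM libraries and BSM replicate 1 far below the other BSM libraries, and they still did not overlap. Means were 0.379 ± 0.485 FPKM in BMDM and 7.95 ± 4.34 FPKM in BSM (SD, n = 3 each), a ratio of 21.0. On the log2(FPKM + 1) scale, which understates the change of a gene this low, the difference was -2.60 (SE 0.46, limma adjusted p = 0.00254), and a pseudocount of 0.1 gave -4.35 (adjusted p = 0.00501). The ALEXA-Seq signal was 2.45, 1.72 and 16.8 in BMDM against 75.0, 183 and 242 in BSM, with the same libraries apart from their group, and its log2 fold change was -4.77 (SE 0.82, limma adjusted p = 0.00353).

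Rgs1 and Rgs2 are both known to be induced soon after cells are activated, so immediate early genes were read in the same libraries. The 10 of them measured (Fos, Fosb, Jun, Junb, Egr1, Egr2, Ier2, Dusp1, Atf3 and Nr4a1) summed to 21.4 to 64.1 FPKM in BMDM and 231 to 380 FPKM in BSM. Within BSM the order was the reverse of that of Rgs1 and Rgs2: the sum was 380 FPKM in replicate 1, 286 in replicate 2 and 231 in replicate 3, while both RGS genes were lowest in replicate 1 and highest in replicate 3. This order rests in part on BSM replicate 1, the library with the low RNA integrity. Within BMDM, replicate 3 had the highest sum and also the highest Rgs1 and Rgs2. Egr1 and Jun carried most of the BSM sum, with 94.3 to 141 FPKM and 86.4 to 141 FPKM in BSM against at most 0.753 FPKM and 14.0 FPKM in BMDM. The list was not uniform: Fos, Dusp1, Atf3 and Ier2 overlapped between the groups, and Nr4a1 was lower in BSM, at 0 to 0.112 FPKM against 0.637 to 1.34 FPKM. The part of cell activation during isolation in either difference was not tested.

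Rgs18, an R4 member best known from platelets and other marrow-derived cells, was the member found in BMDM alone. The gene lies at chr1:146599971-146622557 (mm9). It had 5.05, 2.67 and 3.55 FPKM in BMDM and is listed at 0 in all 3 BSM libraries. ALEXA-Seq likewise gave 73.4, 43.6 and 51.1 in BMDM and 0 in each BSM library. Limma called it higher in BMDM with adjusted p = 0.000722 in FPKM and adjusted p = 0.000179 in ALEXA-Seq. The fitted log2 fold changes of 2.22 (SE 0.30) and 5.80 (SE 0.49) depend on the value added to the zeros, so no fold is given. Platelet and megakaryocyte markers (Pf4, Ppbp, Itga2b, Gp9 and Gp1bb, 5 of 5 measured) summed to 0.720, 0.834 and 7.00 FPKM in BMDM replicates 1 to 3 and to at most 0.329 FPKM in BSM, with Gp1bb at 0 in all libraries. Of the sum in BMDM replicate 3, 6.50 FPKM was Ppbp. Rgs18 was highest in BMDM replicate 1, where this sum was lowest. The sums of BMDM replicates 1 and 2 were both low and close to each other, so their order says little. The part of platelets in the Rgs18 difference was not tested.

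Granulocyte markers (Ly6g, Mpo, Elane, Camp, Ltf and Ngp, 6 of 6 measured) also moved with the cell type. They summed to 45.6, 324 and 81.8 FPKM in BMDM replicates 1 to 3 and to at most 0.0714 FPKM in BSM, with Camp, Elane, Ltf and Ly6g at 0 in BSM. Erythroid markers (Hbb-b1, Hba-a1, Klf1 and Alas2, 4 of 4 measured) were likewise highest in BMDM replicate 2, at 37.8 FPKM, against 6.31 and 6.54 FPKM in the other BMDM libraries and at most 0.158 FPKM in BSM, where Hba-a1 and Klf1 were at 0. BMDM replicate 2 had the lowest Rgs18, Rgs19, Rgs2, Rgs1, Rgs12 and Rgs14 of its group in FPKM and the highest Rgs3. Without this library Rgs18 kept a log2 fold change of 2.39 (limma adjusted p = 0.00139) and Rgs19 one of 1.24 (adjusted p = 0.0472) in FPKM. Lymphocyte markers summed to 0.654 to 8.86 FPKM in BMDM, again highest in replicate 2, and to 0.317 to 0.521 FPKM in BSM, and endothelial and mural markers to 1.32 to 2.88 and 1.04 to 1.97 FPKM. Among markers of brain cells, those of astrocytes and neurons summed to at most 0.178 and 0.249 FPKM in any library, and those of oligodendrocytes to 5.58 to 8.58 FPKM in BMDM and 0.826 to 1.16 FPKM in BSM, nearly all of it Mbp, with Mobp and Mog at 0 in BMDM. The part of other cell types in the RGS differences was not tested.

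Rgs3 and Rgs16 are the remaining R4 members. Rgs3, at chr4:62220881-62365035 (mm9), has long forms with further domains and acts on Gi and Gq. It had 0.821, 1.23 and 0.955 FPKM in BMDM and 2.29, 0.183 and 0.162 FPKM in BSM. BSM replicate 1 stood above all BMDM libraries and the other BSM libraries stood below them, so the groups overlapped (exact two-sided permutation test p = 0.6, n = 3 each). ALEXA-Seq showed the same library apart, with 35.1 in BSM replicate 1 against 1.87 and 1.38 in replicates 2 and 3 and 5.60, 11.4 and 5.53 in BMDM. This library also stood apart for a pair of G alpha genes, chosen after their values were seen: Gna11 had 7.67 FPKM in BSM replicate 1 against 0.612 and 0.758 in the others, and Gnai1 had 3.36 against 0.0103 and 0.00434. It is the library with the low RNA integrity and the only BSM library labelled male, and these cannot be told apart within BSM. Their part in these values was not tested. The span of Rgs3 overlaps that of ENSMUSG00000085177, which was at 0 FPKM in all libraries. Rgs16, an inducible regulator of Gi and Gq at chr1:155587479-155592598 (mm9), was near 0 throughout, with 0.0201 FPKM in BMDM replicate 1, 0.0172 and 0.0167 FPKM in BSM replicates 2 and 3, and 0 in the other 3 libraries.

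Rgs10, the smallest member of the R12 group, acts on Gi and is known as a restraint on inflammatory activation of microglia. The locus spans chr7:135517135-135562272 (mm9). Its promoter, on the minus strand at chr7:128418123-128418422 of GRCm38.p6 (RefSeq), is shown with the GC boxes in capitals for comparison with that of Rgs2.
Rgs10 promoter: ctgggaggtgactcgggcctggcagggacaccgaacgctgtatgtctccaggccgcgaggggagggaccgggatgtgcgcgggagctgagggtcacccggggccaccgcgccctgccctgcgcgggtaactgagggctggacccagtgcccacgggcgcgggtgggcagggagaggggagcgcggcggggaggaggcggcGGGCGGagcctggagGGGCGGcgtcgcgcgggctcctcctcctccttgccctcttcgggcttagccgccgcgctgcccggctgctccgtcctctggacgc
It held 2 GC boxes, 76.0% G and C and 34 CpG. Both promoters thus lay above the median of all promoters in G and C and in CpG, and neither held the letters TATAAA or GAGGAAGT, the latter a site of the kind bound by the myeloid factor PU.1. TATAAA was found in 13.6% of all promoters and GAGGAAGT in 3.2%, on either strand.

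Rgs10 had 35.3, 42.4 and 50.3 FPKM in BMDM and 99.5, 167 and 132 FPKM in BSM. The lowest BSM library lay well above the highest BMDM library. BSM exceeded BMDM by a ratio of means of 3.11, a log2 fold change of -1.60 (SE 0.27, 95% confidence interval -2.21 to -0.98, limma adjusted p = 0.00185). In ALEXA-Seq the values were 373, 505 and 509 in BMDM and 1087, 1911 and 1459 in BSM, with a log2 fold change of -1.66 (SE 0.26, limma adjusted p = 0.00247). Rgs10 ranked 49 of 18740 genes by mean FPKM in BSM and 413 of 18846 in BMDM. Its span overlaps 1 other annotated gene, ENSMUSG00000084964, which had at most 0.142 FPKM in BMDM and 1.22 to 2.26 FPKM in BSM, and since the strand used in counting is not stated, reads of overlapping genes cannot be told apart.

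The larger R12 proteins, Rgs12 and Rgs14, carry Ras-binding and GoLoco domains beside the RGS domain and so bind inactive Gi as well. Rgs14, at chr13:55471093-55486048 (mm9), had 0.672, 0.333 and 1.04 FPKM in BMDM and 0.0189, 0.0686 and 0.104 FPKM in BSM. The groups did not overlap (exact two-sided permutation test p = 0.1, n = 3 each), and 0.1 is the smallest p that 3 against 3 libraries can give. With the FPKM minimum lowered to 1, limma gave Rgs14 a log2 fold change of 0.64 (adjusted p = 0.0514), short of the threshold. In ALEXA-Seq it had 16.0, 8.01 and 20.7 in BMDM against 0.543, 1.75 and 2.39 in BSM, and with all genes above 0 included the log2 fold change of 2.62 passed (limma adjusted p = 0.0337). Rgs12, at chr5:35292094-35382293 (mm9), was lower still, with 0.251, 0.222 and 0.342 FPKM in BMDM and 0, 0.187 and 0.138 FPKM in BSM. Its FPKM did not overlap between the groups (exact permutation p = 0.1) but its ALEXA-Seq values did, at 0.925, 2.08 and 1.79 in BMDM and 0, 1.60 and 1.14 in BSM.

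Rgs19, of the RZ group and also called GAIP, acts on Gi and is anchored to membranes through palmitoylated cysteines. It is encoded at chr2:181423124-181428682 (mm9). Of its 3 RefSeq promoters on the minus strand, the one starting farthest upstream, at chr2:181693928-181694227 of GRCm38.p6, is shown as the contrast to the pair above. Rgs19 was higher in BMDM with the deposited values, a call that was lost with each of the 3 scalings given below.
Rgs19 promoter: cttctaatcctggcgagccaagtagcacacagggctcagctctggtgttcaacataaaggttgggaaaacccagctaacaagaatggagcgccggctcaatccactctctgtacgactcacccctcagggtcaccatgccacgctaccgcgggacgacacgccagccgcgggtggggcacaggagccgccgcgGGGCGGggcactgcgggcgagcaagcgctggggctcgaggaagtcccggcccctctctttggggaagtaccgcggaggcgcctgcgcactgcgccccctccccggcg
It held 1 GC box in capitals, 66.7% G and C and 27 CpG, and 1 match to GAGGAAGT, which is left in lower case. High G and C content was thus found on both sides of the comparison for the promoters shown. The Rgs19 promoter at chr2:181693761-181694060 had 72.7% G and C and 37 CpG. The Rgs19 promoter at chr2:181691768-181692067 lay near the median of all promoters, with 53.3% G and C, 4 CpG and no GC box. Over the 6 members with a RefSeq promoter (Rgs2, Rgs3, Rgs10, Rgs12, Rgs16 and Rgs19) there were 10 promoters, of which 8 held a GC box, 3 held GAGGAAGT, 2 held TATAAA and 2 held TGACG (both strands searched, and the first 2 windows of Rgs19 overlap and share a GC box and the GAGGAAGT site). TGACG is the core of the cyclic AMP response element, and 20.8% of all promoters held it. The promoters with TGACG were that of Rgs2 and one of Rgs12.

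Rgs19 had 5.23, 4.59 and 6.29 FPKM in BMDM and 0.837, 3.01 and 2.17 FPKM in BSM. The groups did not overlap, although BSM replicate 2 came close to the lowest BMDM library. Means were 5.37 ± 0.860 FPKM in BMDM and 2.01 ± 1.10 FPKM in BSM (SD, n = 3 each), a ratio of 2.68, with a log2 fold change of 1.15 (SE 0.33, 95% confidence interval 0.39 to 1.91, limma adjusted p = 0.0199). ALEXA-Seq gave 42.8, 41.8 and 45.6 in BMDM and 8.49, 21.9 and 19.6 in BSM, a log2 fold change of 1.43 (SE 0.43, limma adjusted p = 0.0330). This call did not hold in every setting: without BMDM replicate 1 or 3 the adjusted p in limma on FPKM was 0.0594 and 0.0849, and with no FPKM minimum it was 0.0625. In ALEXA-Seq the adjusted p was 0.0933, 0.0864 and 0.119 without BMDM replicate 1, 2 and 3, and 0.0539 without BSM replicate 3. The log2 fold change of Rgs19 exceeded that of 63.0% of all genes tested, whereas Rgs18 exceeded 88.7%, and Rgs2, Rgs10 and Rgs1 exceeded 9.11%, 5.23% and 2.11%.

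Because most genes had lower FPKM in BSM, the 5 tested genes were also compared after 3 scalings of the libraries. The median log2 fold change of all genes moved from 0.81 to 0.14 with upper quartile scaling, to 0.02 with quantile normalization and to -0.22 with scaling to the same sum, and the share of genes called higher in BSM rose from 9.2% to between 16.5% and 24.9%. Rgs2 went from -1.00 to -1.85, -1.71 and -2.31 in that order of scalings, and Rgs10 from -1.60 to -2.44, -2.28 and -2.89. Rgs1 reached -3.07, -3.20 and -3.31, and Rgs18 1.90, 1.74 and 1.74. These 4 genes stayed past the threshold in the same direction under each scaling in both tables. Rgs19 fell to 0.52, 0.34 and 0.17 in FPKM and lost its call each time (limma adjusted p = 0.283, 0.309 and 0.730), as it did in ALEXA-Seq (adjusted p = 0.249, 0.256 and 0.755). Relative to the median of all genes, the deposited log2 fold changes came to -3.41 for Rgs1, -2.41 for Rgs10, -1.80 for Rgs2, 0.34 for Rgs19 and 1.41 for Rgs18.

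**Figure D2:**
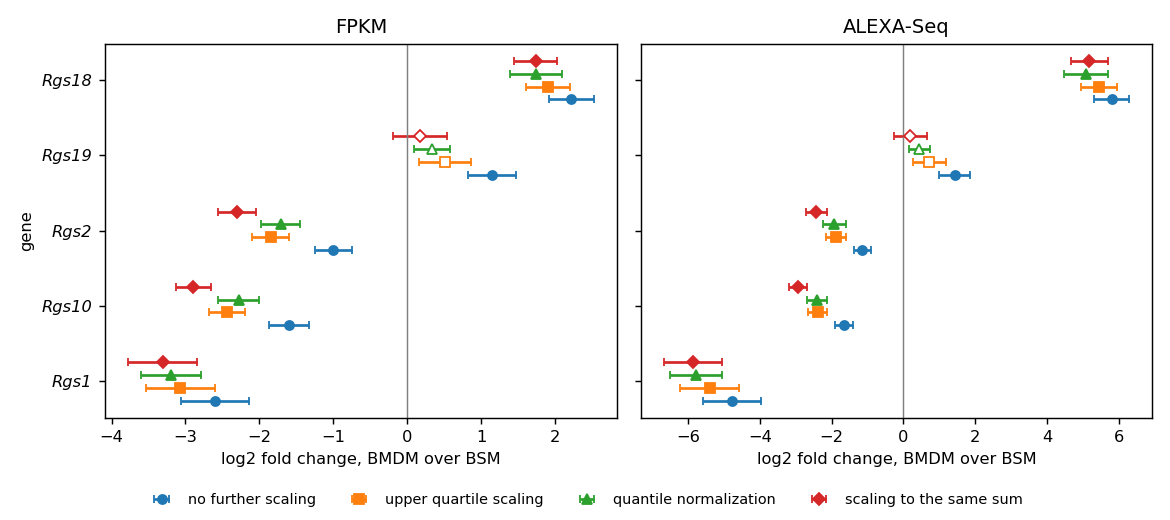
Log2 fold changes of BMDM over BSM on the horizontal axis for the 5 tested RGS genes, in FPKM on the left and ALEXA-Seq on the right, for the deposited values and 3 scalings of the libraries; bars show the standard error, and filled symbols passed an adjusted p-value of 0.05 in limma. Rgs18 stays right of 0 and Rgs2, Rgs10 and Rgs1 stay left of it in every setting, while the 3 scalings move Rgs19 toward 0 and leave its symbols open.

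Within each library, a member's share of the summed FPKM of the 9 genes does not depend on how whole libraries are scaled. The sum was 153, 144 and 190 FPKM in BMDM and 272, 414 and 403 FPKM in BSM, so every BSM library had more RGS transcript than any BMDM library. Rgs2 and Rgs10 together made up most of it in both cell types. Rgs10 took 26.3 ± 3.13% of the sum in BMDM and 36.6 ± 3.84% in BSM (SD, n = 3 each), with the highest BMDM library at 29.4% and the lowest BSM library at 32.7%. In ALEXA-Seq these shares overlapped, with BMDM replicate 2 at 37.5% and BSM replicate 3 at 36.3%. Rgs2 took 66.6 ± 2.31% in BMDM and 60.5 ± 3.70% in BSM (SD, n = 3 each), and here BSM replicate 3 at 63.8% came close to BMDM replicate 2 at 64.3%. The ratio of Rgs2 to Rgs10 was 2.98, 2.19 and 2.51 in BMDM and 1.67, 1.40 and 1.95 in BSM, without overlap in FPKM, but in ALEXA-Seq BSM replicate 3 at 1.57 lay above BMDM replicate 2 at 1.45.

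The minor members changed places. Rgs19 and Rgs18 took 3.31 ± 0.124% and 2.34 ± 0.837% of the sum in BMDM (SD, n = 3), where Rgs1 took 0.209 ± 0.247%. In BSM Rgs1 took 2.08 ± 0.862% and Rgs19 0.525 ± 0.210% (SD, n = 3). Ordered by mean FPKM, a scale that takes account of length, BMDM had Rgs2, Rgs10, Rgs19, Rgs18, Rgs3, Rgs14, Rgs1, Rgs12 and Rgs16. The ranges of Rgs19 and Rgs18 overlapped, and so did those of each neighbouring pair from Rgs3 to Rgs12. In BSM the order was Rgs2, Rgs10, Rgs1, Rgs19, Rgs3, Rgs12, Rgs14, Rgs16 and Rgs18, and Rgs2 overlapped Rgs10 there, BSM replicate 1 having 166 FPKM of Rgs2 and replicate 2 having 167 FPKM of Rgs10. Each neighbouring pair from Rgs19 to Rgs14 overlapped as well.

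**Figure D3:**
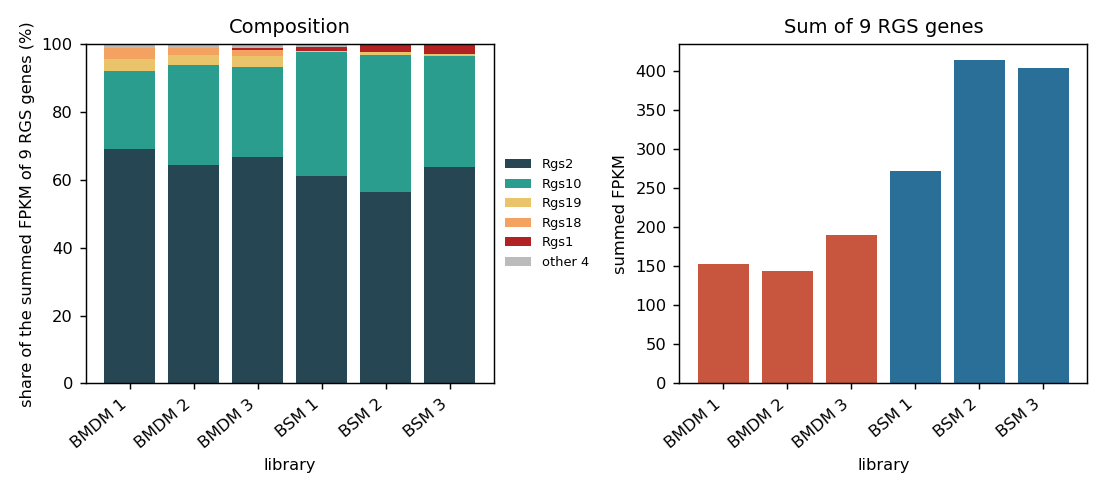
Left, the share of each RGS gene in the summed FPKM of the 9 genes in each of the 6 libraries, in percent; right, the sum itself in FPKM. Rgs2 and Rgs10 fill most of every bar, Rgs10 takes 23.1 to 29.4% in BMDM and 32.7 to 40.4% in BSM, and the sum is 144 to 190 FPKM in BMDM and 272 to 414 FPKM in BSM.

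Rgs2, Rgs1 and Rgs18 lie within 776 kb of each other on chromosome 1 (mm9), yet differed between the cell types in opposite directions. The end of Rgs2 and the start of Rgs1 are 241 kb apart, and the end of Rgs1 and the start of Rgs18 are 504 kb apart. Rgs13, another family member between Rgs2 and Rgs1, was at 0 FPKM in all 6 libraries, and ALEXA-Seq gave it 0.0796 in BMDM replicate 1 and 0 in the others. On the other side of Rgs2, Uchl5, a deubiquitinase of the proteasome, had 24.3, 20.9 and 31.3 FPKM in BMDM and 9.65, 6.45 and 6.44 FPKM in BSM, the opposite order to Rgs2. Cdc73, a subunit of the PAF1 complex, also lay lower in BSM, with 10.1, 14.2 and 10.9 FPKM in BMDM and 9.29, 6.07 and 9.17 FPKM in BSM. Glrx2 overlapped between the groups, with 7.90, 5.51 and 10.7 FPKM in BMDM and 2.40, 5.65 and 4.35 FPKM in BSM. Most genes had lower FPKM in BSM, and no scaled values are given for these neighbours. Trove2, encoding the Ro autoantigen, went the other way at low levels, with 0.119, 0.142 and 0.221 FPKM in BMDM and 0.526, 0.845 and 1.03 FPKM in BSM.

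**Figure D4:**
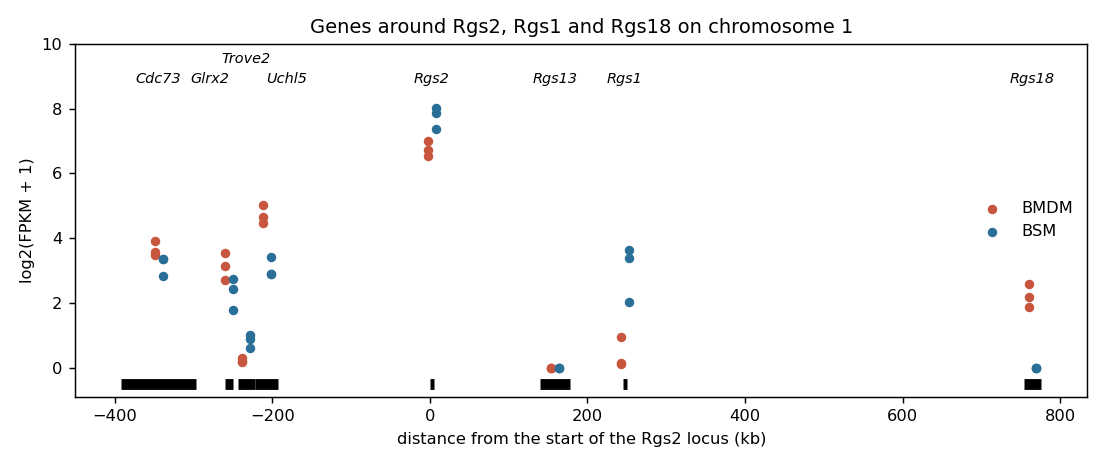
Genes around Rgs2, Rgs1 and Rgs18, by distance in kb from the start of the Rgs2 locus on the horizontal axis and log2(FPKM + 1) on the vertical axis, 1 point per library; black bars show the gene spans. Rgs2 and Rgs1 are higher in BSM, Rgs18 and Uchl5 are higher in BMDM, and Rgs13 is at 0 FPKM in all 6 libraries.

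The genes nearest to each tested member over the 6 libraries were found by Euclidean distance on log2(FPKM + 1). Rgs1 was closest to Cd34 (distance 0.81), which had 0.445, 0.559 and 0.922 FPKM in BMDM and 4.72, 9.95 and 11.3 FPKM in BSM, and then to ENSMUSG00000086717 (0.91). Rgs10 was closest to Hspa5 (0.97), an endoplasmic reticulum chaperone, and Mef2a (0.99), a transcription factor. Rgs2 was closest to Zcchc7 (0.88) and Clk1 (0.92), a kinase of splicing factors. Rgs18 was closest to Sestd1 (0.46) and Art2a (0.47), and Rgs19 to Trim21 (0.35), an intracellular antibody receptor, and ENSMUSG00000082145 (0.39).

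The other members of the RGS family were nearly silent in both cell types. Of the 12 further genes listed, 10 were in the FPKM table and none reached the minimum. Rgs7 and Rgs13 were at 0 FPKM throughout, and the highest value of the list was 0.145 FPKM, for Rgs8 in BMDM replicate 3. Rgs21 and Rgs22 were not matched by symbol.

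The genes of the alpha subunits on which RGS proteins act differed in a way that depended on the scaling. With the deposited values, 7 of 13 G alpha genes were tested, 3 were higher in BMDM, 0 in BSM and 4 did not pass. Their median log2 fold change was 0.07 against 0.81 for all genes, of which 54.5% passed, 45.3% on the BMDM side. Gna11 and Gnai1 did not pass and reached the minimum only through BSM replicate 1, the library with low RNA integrity. Without it 5 were tested and 3 were called, all for BMDM. The median of 0.07 thus rests in part on that library. With all 6 libraries, the BMDM and BSM calls became 2 and 2 with upper quartile scaling and 3 and 2 with quantile normalization. They were 1 and 2 with scaling to the same sum, and Gnaq and Gna13 were the genes called in BSM each time. The inhibitory subunit gene Gnai2 had 29.5, 45.0 and 38.9 FPKM in BMDM and 10.8, 9.30 and 7.15 FPKM in BSM, a log2 fold change of 1.94 (SE 0.26, limma adjusted p = 0.000695). Gnai3, another of the Gi class, had 18.8, 23.8 and 24.2 FPKM in BMDM and 2.59, 6.84 and 6.38 FPKM in BSM, a log2 fold change of 1.96 (limma adjusted p = 0.00221). Both groups were apart for both genes. Gnas, the stimulatory subunit, differed by 1.60 (limma adjusted p = 0.00209), but lost the call with upper quartile scaling (0.77, adjusted p = 0.0564) and with scaling to the same sum (0.32, adjusted p = 0.347), as Gnai3 did in the latter (0.78, adjusted p = 0.111). Gnaq, of the Gq class on which Rgs2 is known to act, had 4.60 ± 1.57 FPKM in BMDM and 6.44 ± 0.694 FPKM in BSM (SD, n = 3 each) and did not pass (log2 fold change -0.44, limma adjusted p = 0.200), but with the 3 scalings it was called higher in BSM at -1.15, -1.24 and -1.54 (limma adjusted p = 0.0151, 0.0143 and 0.00476). Gna13 went from 0.07 to -0.73, -0.69 and -1.16 (limma adjusted p = 0.0252, 0.0389 and 0.00401). Gnai2 stayed higher in BMDM with each of them (1.13, 1.18 and 0.70, limma adjusted p = 0.00679, 0.00488 and 0.0476).

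The summed FPKM of the 13 G alpha genes was 143 ± 13.9 in BMDM and 62.4 ± 7.23 in BSM (SD, n = 3 each). Set against it, the RGS sum came to 1.20, 0.966 and 1.25 times the G alpha sum in BMDM and 4.48, 5.88 and 7.18 times in BSM. No BSM library came near the BMDM range. This ratio was chosen after the values were seen and is given with no test. In ALEXA-Seq it was 1.03, 0.731 and 1.01 in BMDM and 3.05, 4.84 and 5.42 in BSM.

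Receptor kinases and arrestins, which turn off the receptor rather than the G protein, differed in both directions. All 5 of the 7 listed genes that were tested passed with the deposited values, against 54.5% of all genes, with 4 on the BMDM side and 1 on the BSM side. With each of the 3 scalings 1 passed in each direction, Grk5 and Arrb2, and the count fell to 3 without BMDM replicate 1, to 2 without BMDM replicate 2, BSM replicate 2 or BSM replicate 3, and to 1 without BMDM replicate 3. Grk5 had 3.40, 4.83 and 3.70 FPKM in BMDM and 0.00622, 0.190 and 0.147 FPKM in BSM, a log2 fold change of 2.15 (limma adjusted p = 0.000519). Arrb2, encoding beta-arrestin 2, was the gene higher in BSM, with 4.07, 6.20 and 4.46 FPKM in BMDM and 11.3, 8.90 and 8.10 FPKM in BSM (log2 fold change -0.83, limma adjusted p = 0.0249). Its call was lost without BMDM replicate 1 (adjusted p = 0.0798), BMDM replicate 3 (0.0960) or BSM replicate 2 (0.0606). The kinase gene Adrbk2 and Arrb1, encoding beta-arrestin 1, had log2 fold changes of 0.93 and 0.77 (limma adjusted p = 0.0129 and 0.0193), close to the median of all genes, and lost the call with each of the 3 scalings, Arrb1 turning to -0.25 with scaling to the same sum. Adrbk2 also lost it without BMDM replicate 3 (0.0588) or BSM replicate 3 (0.0528), and Arrb1 without BMDM replicate 2 (0.0542), BMDM replicate 3 (0.0776), BSM replicate 2 (0.0561) or BSM replicate 3 (0.0565). Adrbk2 reached the minimum only through BMDM replicate 2 and was not tested without that library. Adrbk1 passed in FPKM (0.84, limma adjusted p = 0.0493) and not in ALEXA-Seq, lost the call with each scaling, turning to -0.11 with scaling to the same sum, and without any 1 library except BSM replicate 1.

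Effectors downstream of the alpha and beta-gamma subunits passed in 2 of 7 tested cases with the deposited values, against 54.5% of all genes. Both were higher in BMDM and reached the minimum there alone, and the median of the list was 0.36 against 0.81. The split was 1 and 1 with upper quartile scaling and with quantile normalization and 1 and 2 with scaling to the same sum, since Pik3r6 was lost and Pik3cb, a catalytic subunit, was called higher in BSM each time (-0.95, -0.90 and -1.36), joined by Pik3cg in the last (-1.16). Plcb1, a phospholipase C activated by Gq, had 40.6, 32.6 and 31.3 FPKM in BMDM and 0, 0 and 0.00582 FPKM in BSM (log2 fold change 5.15, SE 0.22, limma adjusted p = 3.07e-06). Plcb2 of the same family overlapped between the groups at 6.53 ± 3.59 and 5.85 ± 2.06 FPKM (SD, n = 3 each). Pik3r6, a regulatory subunit of the phosphoinositide kinase activated by beta-gamma, had 2.12, 5.47 and 2.76 FPKM in BMDM and 0.299, 0.840 and 0.762 FPKM in BSM (log2 fold change 1.39, limma adjusted p = 0.0118), and lost the call with each of the 3 scalings. Pik3r6 reached the minimum only through BMDM replicate 2 and was not tested without that library. Its partner Pik3r5 did not pass (0.63, limma adjusted p = 0.0730).

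Of the 17 beta and gamma subunit genes, 6 were tested and 1 passed, against 54.5% of all genes. That gene, Gng12, was higher in BMDM (log2 fold change 1.20, limma adjusted p = 0.0168). It did not pass in ALEXA-Seq, with any of the 3 scalings or without BMDM replicate 2 (limma adjusted p = 0.0538). Gngt2 was called higher in BSM with each scaling instead (-1.47, -1.34 and -1.92), joined by Gng5 with quantile normalization (-0.96). Without BSM replicate 1, Gnb1 and Gng2 were also called higher in BMDM, and without BSM replicate 3 Gngt2 was called higher in BSM. The 3 of 5 other modulators of alpha subunits that were tested all passed, against 54.5% of all genes. All were higher in BMDM, as were 45.3% of all genes, with a median of 1.16 against 0.81. They reached the minimum in BMDM alone, so the count is a description. Gpsm3 reached it only through BMDM replicate 2 and Ric8 only through BMDM replicate 1. Neither was tested without that library. Gpsm2, whose GoLoco motifs hold alpha subunits in the inactive form as those of Rgs14 do, had 1.26, 4.62 and 3.58 FPKM in BMDM and 0.0134, 0.0494 and 0.00256 FPKM in BSM (log2 fold change 1.92, limma adjusted p = 0.00492). Gpsm3 had a log2 fold change of 1.16 (limma adjusted p = 0.0232) and lost the call with each of the 3 scalings, and without BMDM replicate 3 (adjusted p = 0.0504), BSM replicate 2 (0.0503) or BSM replicate 3 (0.0580). Ric8, a chaperone of alpha subunits, passed in FPKM (0.97, limma adjusted p = 0.0203), was not among the genes tested in ALEXA-Seq, and lost the call with each scaling and without BMDM replicate 3 (adjusted p = 0.0560), which left 1 gene, Gpsm2, called.

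Over these lists together, 14 of 28 tested genes passed, 13 higher in BMDM and 1 higher in BSM, against 54.5% of all genes. Grk5, Adrbk1, Adrbk2, Arrb1, Plcb1, Pik3r6, Gpsm2, Gpsm3 and Ric8 reached the FPKM minimum in BMDM alone, so the count is a description. This split rested on the scaling: it was 5 and 5 with upper quartile scaling, 6 and 6 with quantile normalization and 4 and 6 with scaling to the same sum. The number that passed fell to 8 without BMDM replicate 2, where 25 genes were tested, and to 8 without BMDM replicate 3.

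**Figure D5:**
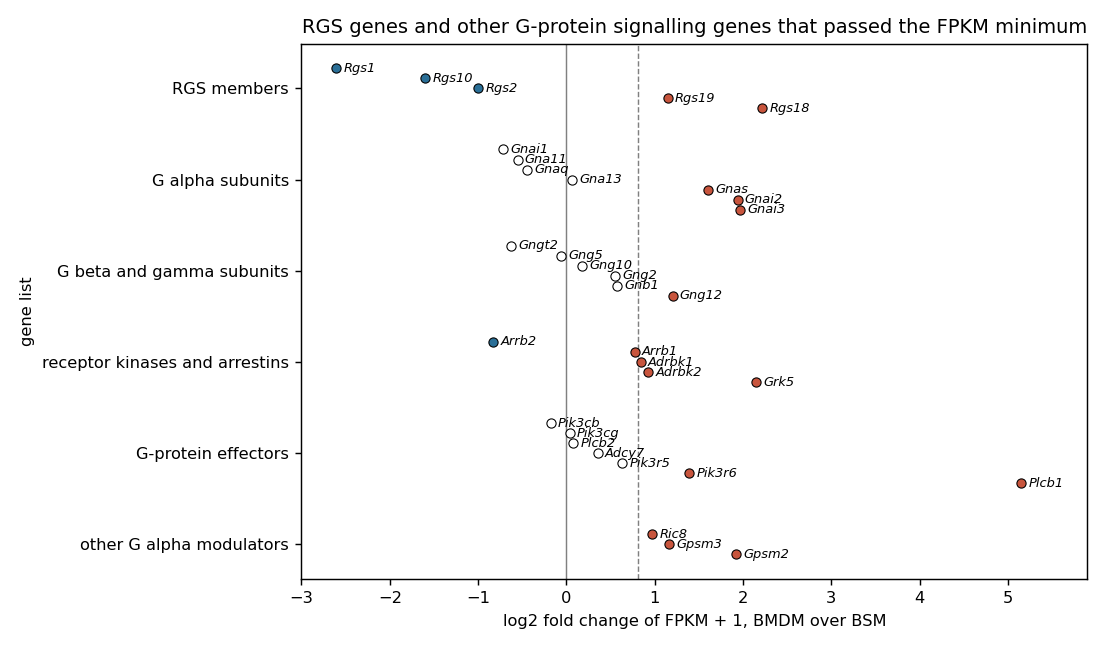
Log2 fold changes of FPKM + 1, BMDM over BSM, on the horizontal axis for the tested RGS genes and 5 lists of other G-protein signalling genes; filled points passed an adjusted p-value of 0.05 in limma (red, higher in BMDM; blue, higher in BSM), and the dashed line is the median of all genes tested, 0.81. Rgs1, Rgs10 and Rgs2 lie left of 0, and among the other lists Arrb2 alone passed on that side with the deposited values, while Plcb1 lies farthest right at 5.15.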

How the data were processed

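The 6 RNA-Seq libraries were made with Ovation cDNA amplification and sequenced as paired ends, and the submitters' processing notes name CASAVA 1.7.0, TopHat 1.3.1, Bowtie 0.12.7, Cufflinks 1.0.3 and build mm9. The authors deposited FPKM per gene from Cufflinks, scaled for exon model length and mapped fragments. The authors also deposited an ALEXA-Seq signal per gene on a linear scale with no unit named, and columns were matched to libraries by their labels. Neither table keeps whole reads, and the number of reads under each value is not known. Members and lists were chosen with earlier results of these data known. Starts in the files are counted from 0 and are printed counted from 1. FPKM were tested with limma 3.58.1 in R 4.3.3 on log2(FPKM + 1) with a mean-variance trend, for genes of at least 3 FPKM in at least 1 library, with Benjamini-Hochberg adjustment, and as many genes, by highest value, in ALEXA-Seq. This step was checked on simulated data. Members under the minimum were compared by exact permutation. All 9 members are named. From each pathway list, up to 3 genes per direction with the largest change among those called in both tables are named with values, and other genes were named after their values were seen. Each tested member has its 2 nearest genes given. Promoters and their motifs, the latter chosen after the values were seen, came from RefSeq (GRCm38.p6), where 6 of 9 members matched and Rgs1, Rgs14 and Rgs18 have no entry in the table used. Tables were handled with Python 3.11.15 and pandas 2.3.3. Alternatives were another pseudocount, other minima, 3 scalings, no trend, library weights, sex or replicate number in the model, and leaving out each library. Some marker genes are not reported here, and the marker sums leave them out.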

Additional observations from a re-analysis of the deposited data

How the results depend on the processing

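Rgs1, Rgs2, Rgs10 and Rgs18 kept their direction and passed the threshold in all 16 alternatives for FPKM and all 15 for ALEXA-Seq, with log2 fold changes from -4.35 to -2.29, -2.31 to -0.87, -2.89 to -1.42 and 1.74 to 5.22 in FPKM. Rgs19 kept its direction (0.17 to 1.53 in FPKM) and lost the call in 6 of 16 alternatives for FPKM and 9 of 15 for ALEXA-Seq; the cause was not tested. The number of members called ranged from 4 to 5 in each table when 1 library was left out. The number of other G-protein signalling genes called ranged from 8 to 16 when 1 library was left out, against 14 with all libraries. Arrb1 turned from 0.77 to -0.25 with scaling to the same sum. The labels do not say that same-numbered libraries form pairs, and they were not paired in the main test. Their deviations from the group means correlated at -0.02, -0.01 and 0.13, and replicate 3 alone correlated best with its own number. With 3 libraries per group, these values cannot show whether the libraries are paired. With the replicate number as a block 5 members were called in FPKM and 4 in ALEXA-Seq, where Rgs19 had a limma adjusted p of 0.0524. The difference in the Rgs10 share of the RGS sum (BMDM minus BSM) ranged from -12.2 to -8.34 percentage points when 1 library was left out. Statements on Rgs3, Rgs12, Rgs14 and Rgs16 are limited by the 3 libraries per group and the added pseudocount for genes near 0. The number of reads under each of their values is also not known.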
